A study of Mus musculus with 23 samples.

Results

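Neuronal immediate early genes are the genes that neurons transcribe first after a burst of synaptic activity. They were followed here as a set of 10 rows of the deposited expression table, *Fos*, *Fosb*, *Junb*, *Arc*, *Egr1*, *Egr2*, *Egr4*, *Npas4*, *Nr4a1* and *Dusp1*, chosen by gene symbol from the 19733 genes of the table. The table holds hippocampal RNA sequencing of 23 male C57BL/6J mice of wild-type (WT) genotype, acquired at 6 weeks of age. In the Ctrl group, 9 mice drank an AIN93M control liquid diet and received the vehicle CMC-Na (0.05%) by gavage. In the EtOH group, 7 mice drank the ethanol version of the diet and received the same vehicle. In the EtOH-UA group, 7 mice drank the ethanol diet and were gavaged with urolithin A (UA, a metabolite that gut bacteria make from ellagic acid) at 200 mg/kg/day in that vehicle. Treatment ran for 16 weeks and was followed in all groups by 1 week of behavioral tests before the tissue was taken. None of these mice received UA on the control diet, so UA is seen here only on top of ethanol. The hour of tissue collection and the interval since the last behavioral test were not given in the sources used here.

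These genes need no new protein for their transcription. Calcium entering through NMDA receptors and voltage-gated channels activates kinases, which phosphorylate the factors CREB and SRF-bound TCF proteins already sitting on the promoters, and the transcripts appear within minutes and decay quickly. Most of the products are themselves transcription factors that start a second wave of genes, while *Arc* acts directly at the synapse and *Dusp1* switches the kinase signal off. In the hippocampus they are widely used as a record of which neurons were recently active, and *Fos*, *Arc* and *Egr1* are the common markers of cells engaged by learning.

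The RefSeq promoter table (build GRCm38.p6) matched 8 of the 10 members, all but *Arc* and *Egr1*. The sequences are shown because CREB binds the cyclic AMP response element (CRE), whose core letters TGACG were searched on both strands within the 250 bases before the transcription start. All 8 matched members held the core in at least 1 window, and 17.8% of the 32851 promoter windows of the table did, or 19.8% of 27025 genes. The whole palindrome TGACGTCA, which contains the core on each strand, was present in 1.55% of all windows and among the members in *Dusp1*, where it begins 143 bases before the start. The 250 bases before the *Fos* start and, for the other 7, a stretch around the core nearest to the start are printed 5′ to 3′ in the direction of transcription, with the core in capitals (CGTCA where it lies on the opposite strand).
Fos (chr12:85473640-85473889, + strand): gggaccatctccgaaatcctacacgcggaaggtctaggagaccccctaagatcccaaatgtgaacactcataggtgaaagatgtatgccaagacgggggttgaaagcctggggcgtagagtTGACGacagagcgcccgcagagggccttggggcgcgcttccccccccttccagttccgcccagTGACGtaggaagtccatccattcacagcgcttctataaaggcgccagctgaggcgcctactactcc
Fosb (chr7:19310073-19310133, - strand): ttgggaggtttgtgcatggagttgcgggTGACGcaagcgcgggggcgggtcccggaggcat
Junb (chr8:84978822-84978882, - strand): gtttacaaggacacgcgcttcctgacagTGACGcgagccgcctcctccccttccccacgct
Egr2 (chr10:67537786-67537846, + strand): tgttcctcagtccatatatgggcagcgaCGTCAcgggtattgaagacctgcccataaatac
Egr4 (chr6:85513666-85513726, - strand): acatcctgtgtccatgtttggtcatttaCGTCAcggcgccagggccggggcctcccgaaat
Npas4 (chr19:4990108-4990168, - strand): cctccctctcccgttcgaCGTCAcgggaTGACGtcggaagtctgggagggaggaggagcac
Nr4a1 (chr15:101266777-101266838, + strand): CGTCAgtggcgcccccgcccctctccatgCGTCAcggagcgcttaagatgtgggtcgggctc
Dusp1 (chr17:26508580-26508640, - strand): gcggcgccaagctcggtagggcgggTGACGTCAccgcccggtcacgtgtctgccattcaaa

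In these stretches the core lies between 40 bases (*Nr4a1*) and 169 bases (*Npas4*) before the start. A gene can have several annotated starts. The stretches of *Egr2*, *Npas4* and *Nr4a1* lie inside the gene coordinates given below, and that of *Fosb* crosses their edge. The *Fos* window holds cores at 129 and 66 bases before the start, the *Nr4a1* window holds 4 and the *Dusp1* window 3, of which 2 overlap in the palindrome. The CArG box, the binding motif of SRF, was found in *Egr2* (72 bases before the start) and in 1.47% of all windows. The motif GCGNGGGCG of the EGR zinc-finger factors was found in *Fosb* and *Nr4a1* and in 4.70% of windows. The AP-1 motif TGANTCA, bound by FOS and JUN dimers, was found in 0 of the 8 members and in 6.75% of windows. These are matches of letters within 250 bases and no measurement of binding.

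Expression is given in FPKM, the fragments assigned to a gene divided by its length in kilobases and by the size of the library, which allows levels of different genes to be compared. The FPKM of a library summed to between 327896 and 404609, with EtOH-UA mice B and D highest (mice are lettered within each group in the order of the table). The steps between low FPKM values gave about 16.6 fragments per kilobase at 1 FPKM, from 18 genes. Markers of hippocampal excitatory neurons were present in every library, for example *Prox1* of dentate granule cells (5.66 to 23.2 FPKM) and *Slc17a7*, the vesicular glutamate transporter (373.9 to 508 FPKM). The 7 choroid plexus markers, genes of the epithelium that secretes cerebrospinal fluid, summed to between 7.88 and 7823 FPKM and were above 0 in all libraries. In bulk tissue, fewer cells of a type and less RNA per cell cannot be told apart.

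Over the 23 mice the mean levels descended from *Egr1* (22.9 FPKM) through *Arc* (16.9), *Junb* (15.1), *Nr4a1* (14.0), *Dusp1* (6.02), *Egr4* (4.40), *Npas4* (2.34), *Fos* (1.504) and *Fosb* (1.23) to *Egr2* (0.265 FPKM). *Egr1* was above *Arc* in 23 of 23 mice, *Nr4a1* above *Dusp1* in 23, *Egr4* above *Npas4* in 23, *Npas4* above *Fos* in 23 and *Fosb* above *Egr2* in 23. *Dusp1* was above *Egr4* in 22 of 23 mice. The order of the other neighbours changed between mice, since *Arc* was above *Junb* in 17 mice, *Junb* above *Nr4a1* in 14 and *Fos* above *Fosb* in 15. *Fos*, the best known member, was therefore among the lowest of the set, on about 52.6 fragments per mouse, and *Egr2* rested on about 13.0.

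**Figure D1:**
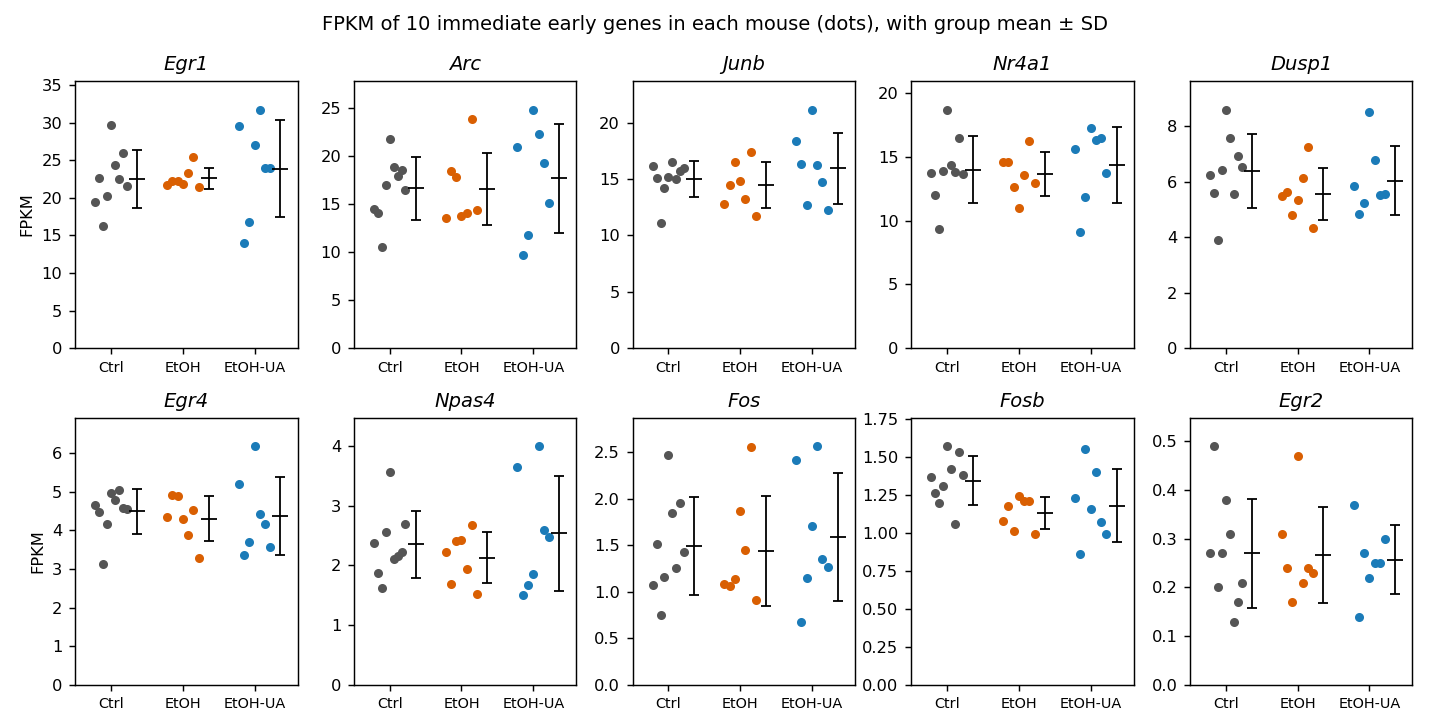
FPKM of the 10 immediate early genes in each mouse, by group, with a separate vertical axis for each gene. Dots are mice (9 Ctrl, 7 EtOH, 7 EtOH-UA) and the bar beside them is the mean ± SD; the groups overlap for every gene, and the *Fosb* values of the 7 EtOH mice (0.99 to 1.24) all lie under the Ctrl median of 1.37.

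*Fos* (gene ID 14281, chr12:85473890-85477274) encodes the founding subunit of the AP-1 factor. It ranged from 0.75 through a median of 1.43 to 2.47 FPKM in Ctrl mice, from 0.91 through 1.14 to 2.55 in EtOH mice and from 0.67 through 1.35 to 2.56 in EtOH-UA mice. The group means were 1.49 ± 0.52 (SD, n = 9), 1.44 ± 0.59 (n = 7) and 1.59 ± 0.69 (n = 7). The highest mouse exceeded the lowest by 3.29, 2.80 and 3.82 times within the 3 groups, a spread that covers the whole difference between them.

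*Fosb* (gene ID 14282, chr7:19302696-19310118) encodes a FOS relative whose truncated splice form, deltaFosB, is long-lived and accumulates under repeated stimulation. The table is by gene and does not separate the splice forms. Its FPKM ran from 1.06 through 1.37 to 1.57 in Ctrl mice, from 0.99 through 1.18 to 1.24 in EtOH mice and from 0.86 through 1.16 to 1.55 in EtOH-UA mice. The means were 1.34 ± 0.16 (SD, n = 9), 1.13 ± 0.10 (n = 7) and 1.18 ± 0.24 (n = 7). The EtOH values overlapped only the low end of the Ctrl range, while the EtOH-UA values covered nearly all of it.

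*Junb* (gene ID 16477, chr8:84976909-84978748), a JUN family partner of FOS in AP-1, was at 11.1, 15.2 and 16.5 FPKM (lowest, median, highest) in Ctrl mice. It was at 11.7, 14.5 and 17.4 FPKM in EtOH mice and at 12.3, 16.3 and 21.2 FPKM in EtOH-UA mice. Its means of 15.0 ± 1.6, 14.4 ± 2.0 and 15.97 ± 3.1 FPKM (SD, n = 9, 7 and 7) lay within 1 SD of each other. Annotated exons of *Prdx2* overlap those of *Junb* on the opposite strand, and the sources used here do not say whether the counting used strand.

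Among the EGR zinc-finger factors, *Egr1* (gene ID 13653, chr18:34861207-34864956), a factor required for lasting synaptic potentiation, had the highest level of the set. It was at 16.2, 22.45 and 29.65 FPKM (lowest, median, highest) in Ctrl mice, at 21.4, 22.2 and 25.4 in EtOH mice and at 14.0, 24.0 and 31.7 in EtOH-UA mice. The 3 means were close, at 22.48 ± 3.9, 22.6 ± 1.4 and 23.9 ± 6.5 FPKM (SD), and the EtOH mice were the most alike. *Egr4* (gene ID 13656, chr6:85511121-85513589), a neuron-enriched member of the family, averaged 4.49 ± 0.57, 4.31 ± 0.58 and 4.38 ± 1.01 FPKM in the same order of groups, over 3.14 to 6.18 in all. *Egr2* (gene ID 13654, chr10:67534469-67542188), best known for its role in myelinating Schwann cells, was barely detected, at 0.27 ± 0.11, 0.27 ± 0.10 and 0.26 ± 0.07 FPKM, and its 23 values lay between 0.13 and 0.49.

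*Npas4* (gene ID 225872, chr19:4984353-5003439) is a bHLH-PAS factor induced by calcium entry in neurons and controls inhibitory synapses. It was at 1.62, 2.22 and 3.56 FPKM (lowest, median, highest) in Ctrl mice, at 1.52, 2.22 and 2.68 in EtOH mice and at 1.51, 2.48 and 3.99 in EtOH-UA mice, so that the lowest mice of the groups were nearly equal and the highest were not. *Nr4a1* (gene ID 15370, chr15:101253902-101274795), an orphan nuclear receptor, averaged 14.0 ± 2.6, 13.7 ± 1.7 and 14.4 ± 3.0 FPKM over 9.12 to 18.7.

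*Arc* (gene ID 11838, chr15:74669081-74672570), whose protein drives removal of AMPA receptors from synapses, was at 10.5, 17.0 and 21.8 FPKM (lowest, median, highest) in Ctrl mice. It was at 13.5, 14.3 and 23.8 FPKM in EtOH mice and at 9.63, 19.3 and 24.8 FPKM in EtOH-UA mice. The medians thus lay further apart than the means of 16.6 ± 3.3, 16.5 ± 3.8 and 17.7 ± 5.7 FPKM. *Dusp1* (gene ID 19252, chr17:26505591-26508472), a phosphatase that inactivates MAP kinases, averaged 6.37 ± 1.33, 5.56 ± 0.94 and 6.03 ± 1.25 FPKM over 3.88 to 8.59. Exons of *Ergic1* overlap *Dusp1* on the opposite strand.

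The comparison of EtOH with Ctrl mice asks what the ethanol diet does to these genes. None of the 10 members passed an adjusted p under 0.05 (limma on log2(FPKM + 0.1), Benjamini-Hochberg over 15985 genes), and 0 of the 15985 genes tested did (0%). A fit with weights for library quality called 1 gene, the nonmember *Cd24a*. At an unadjusted p under 0.05 there was 1 member of 10, *Fosb*, beside 487 genes or 3.05% of all tested. *Fosb* was 0.855 times as high in EtOH as in Ctrl mice, a log2 difference of -0.23 (SE 0.10, 95% interval -0.44 to -0.01, limma, Benjamini-Hochberg adjusted p = 0.999). The two-sided exact permutation test of the same difference over 11440 splits gave p = 0.0106, the smallest of the 30 such tests made over members and comparisons, and 0 of 7 EtOH mice were above the Ctrl median. With the mean of the choroid plexus markers as a covariate, added after seeing the data, the *Fosb* difference was -0.17 (limma adjusted p = 0.9998). *Fosb* no longer had an unadjusted limma p under 0.05 with that covariate, with upper-quartile scaling, without EtOH mouse A, C or G, or without Ctrl mouse A, E, F, H or I, and its difference was -0.198 to -0.27 over the fits that left out 1 mouse.

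The other 9 members differed between EtOH and Ctrl mice by log2 values from -0.18 (*Dusp1*, 95% interval -0.46 to 0.096) and -0.13 (*Npas4*, -0.51 to 0.24) to 0.022 (*Egr1*, -0.26 to 0.30). In all, 8 members were lower and 2 higher, with a median of -0.058 beside -0.003 over all genes tested. The members are correlated across mice, so these signs are not separate observations. The median was -0.12 without Ctrl mouse C and -0.0031 without Ctrl mouse E. With the choroid plexus covariate it was 0.066, of opposite sign, and the *Dusp1* difference was -0.042. The *Npas4* difference was -0.057 without Ctrl mouse E. The interval was widest for *Fos*, from 0.672 to 1.37 times the Ctrl level. Such an interval spans the changes compatible with these mice. It is not a limit of detection, which was not estimated.

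The comparison of EtOH-UA with EtOH mice asks what urolithin A adds to the ethanol diet. None of the 10 members and none of the 15985 genes (0%) passed the adjusted threshold, and 0 members beside 523 genes (3.27%) had an unadjusted p under 0.05. The largest member difference was that of *Npas4*, 1.14 times as high in EtOH-UA mice (log2 difference 0.19, SE 0.19, 95% interval -0.21 to 0.58, limma adjusted p = 0.900). *Junb* differed by 0.13 (95% interval -0.093 to 0.36), *Dusp1* by 0.11 (-0.18 to 0.40) and *Fos* by 0.10 (-0.44 to 0.65). The median over the 10 members was 0.052 beside 0.003 over all genes, with 9 members higher and 1 lower, and it was -0.0035 without EtOH-UA mouse E and 0.15 without EtOH-UA mouse B. Exact permutation tests of the single members over 3432 splits gave p between 0.326 and 0.979. Without EtOH-UA mice B and D, the libraries of highest summed FPKM, the *Npas4* difference was 0.38 (limma adjusted p = 0.999). It was 0.29 without EtOH-UA mouse B alone and 0.067 without EtOH-UA mouse E. With weights for library quality it was 0.39 (limma unadjusted p = 0.0316, adjusted p = 0.884). Without EtOH-UA mouse D the difference was 0.061 for *Junb* and 0.025 for *Dusp1*.

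The comparison of EtOH-UA with Ctrl mice covers ethanol and urolithin A together and uses the same EtOH-UA and Ctrl mice as the comparisons above. Again 0 members and 0 of 15985 genes (0%) passed the adjusted threshold, with 0 members and 492 genes (3.08%) at an unadjusted p under 0.05. *Fosb* was 0.878 times as high in EtOH-UA as in Ctrl mice, a log2 difference of -0.19 (95% interval -0.40 to 0.025, limma adjusted p = 0.999), and the exact permutation test gave p = 0.103. The *Fosb* difference was -0.25 without EtOH-UA mouse C (limma unadjusted p = 0.0191, adjusted p = 0.954). Without EtOH-UA mouse E it was -0.23 (limma unadjusted p = 0.0416, adjusted p = 0.994). The other 9 members lay between -0.069 (*Dusp1*) and 0.075 (*Junb*), and the median over the 10 was 0.036 beside 0.002 over all genes (-0.055 without EtOH-UA mouse A and 0.10 without EtOH-UA mouse B).

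**Figure D2:**
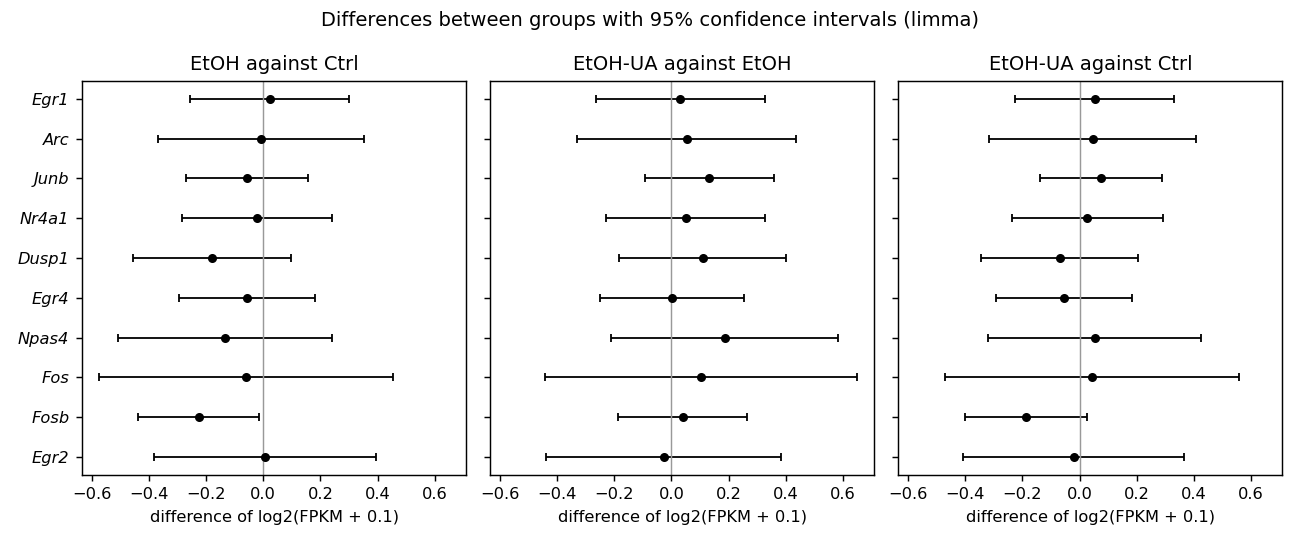
Differences between group means of log2(FPKM + 0.1) for the 10 members in the 3 comparisons, with 95% confidence intervals from limma. Points right of the line at 0 are higher in the group named first; the *Fosb* interval for EtOH against Ctrl (-0.44 to -0.01) is the only 1 of the 30 that does not reach 0.

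The members varied more between mice of a group than most genes did. The residual SD of *Fos* on the log2 scale was 0.53, larger than that of 98.0% of the 12904 genes averaging 1 FPKM or more, whose median was 0.16. *Npas4* (0.38) stood above 95.3% of these genes and *Arc* (0.38) above 95.2%, while *Junb* (0.22) stood above 72.1% and *Fosb* (0.19) above 62.5%. Counting alone, at the fragments estimated from the FPKM steps, would give an SD of 0.19 for *Fos*, 0.049 for *Arc* and 0.035 for *Egr1*, so their residual SDs were 2.84, 7.68 and 8.28 times the counting error. For *Egr2* and *Fosb* the ratio was 1.26 each, the closest to counting error of the 10. The percentages of genes above were not matched for level, and the counting SD of *Fos* alone (0.19) exceeded the median of 0.16.

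By group, the SD in FPKM was largest in EtOH-UA mice for 8 of the 10 members and in Ctrl mice for 2, and it was smallest in EtOH mice for 5, in Ctrl mice for 4 and in EtOH-UA mice for 1. The widest contrast was that of *Egr1*, with an SD of 1.39 FPKM in EtOH and 6.48 in EtOH-UA mice. Without EtOH-UA mouse B, which was lowest of its group in 9 of the 10 members, the *Egr1* SD in EtOH-UA mice was 5.26 and the group held the largest SD for 7 members. In the fit with weights for library quality, EtOH-UA mice B (0.179) and D (0.309) had the lowest weights of all libraries. The same count over all genes was not taken, and the members are correlated, so the 8 are not separate observations. The difference in spread was not tested.

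The same mice were low or high for most members. Ctrl mouse C was the lowest Ctrl mouse in 8 members and EtOH mouse G the lowest EtOH mouse in 7. Ctrl mouse E was the highest Ctrl mouse in 7 members and EtOH mouse F the highest EtOH mouse in 7. Averaged over the 10 members, the deviation from the group mean on the log2 scale ran from -0.53 (EtOH-UA mouse B) and -0.49 (Ctrl mouse C) to 0.31 (EtOH-UA mice E and A) and 0.39 (Ctrl mouse E). All 10 members of Ctrl mouse E were above their Ctrl means and all 10 of Ctrl mouse C and of EtOH mouse G were below.

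**Figure D3:**
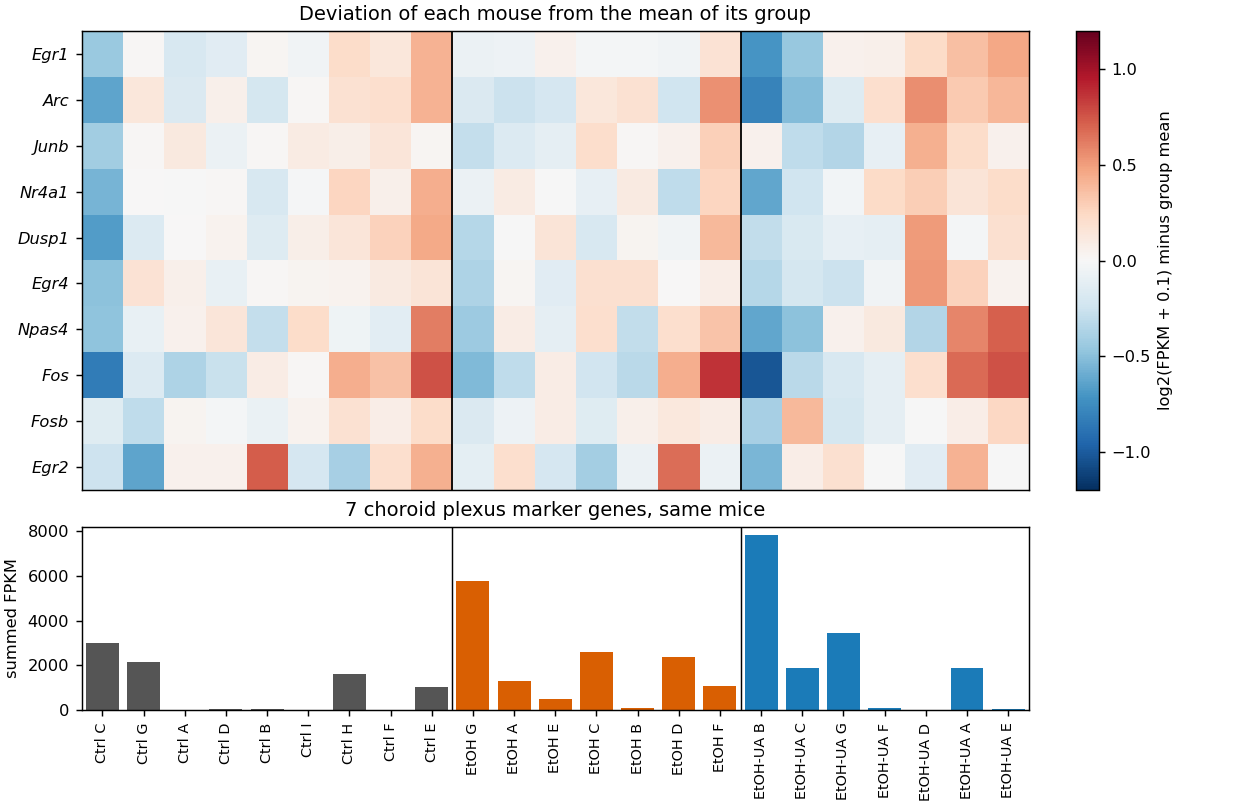
Upper panel, deviation of each of the 23 mice from its group mean in log2(FPKM + 0.1), with members in rows and mice in columns ordered within each group by their mean deviation; lower panel, summed FPKM of 7 choroid plexus markers in the same mice. Ctrl mouse E lies above its group mean in all 10 members (mean deviation 0.39), Ctrl mouse C below in all 10 (-0.49) and EtOH-UA mouse B below in 9 (-0.53).

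This shared movement was measured as the correlation between members over the 23 mice after removing group means. Of the 45 pairs, 44 had a Pearson r above 0 and 25 an r of at least 0.5, and the median r was 0.59 beside 0.0067 for all pairs of genes averaging 1 FPKM or more. With permutations within groups and Benjamini-Hochberg adjustment over the 45 pairs, 26 passed an adjusted p under 0.05 by r and 23 by Spearman's rho. The share of other gene pairs that reach these marks was not taken, so the counts alone do not set the members apart. Within the groups the median r was 0.71 (Ctrl), 0.48 (EtOH) and 0.63 (EtOH-UA).

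*Arc* and *Nr4a1* were the closest pair (r = 0.89, permutation p = 1e-05, the smallest that 100000 permutations can give, adjusted p = 0.000112; rho = 0.87, permutation p = 1e-05, adjusted p = 0.000225). Their r was 0.81 without the 2 mice farthest from the *Arc* median. *Arc* and *Egr1* followed (r = 0.87, permutation p = 1e-05, adjusted p = 0.000112; rho = 0.84, permutation p = 2e-05, adjusted p = 0.0003), with r = 0.79 without the 2 farthest mice. *Fos* and *Egr1* had r = 0.87 (permutation p = 1e-05, adjusted p = 0.000112; rho = 0.85, permutation p = 1e-05, adjusted p = 0.000225) and 0.86 without the 2 farthest mice. These 4 genes, a synaptic effector, a nuclear receptor and 2 other transcription factors, thus varied together from mouse to mouse.

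*Junb* was closest to *Egr4* (r = 0.83, permutation p = 7e-05, adjusted p = 0.000394; rho = 0.72, permutation p = 0.00041, adjusted p = 0.00231; r = 0.71 without the 2 farthest mice), whereas *Junb* and *Egr1* had r = 0.45 (permutation p = 0.075, adjusted p = 0.108; rho = 0.42, permutation p = 0.0634, adjusted p = 0.106). *Egr4* was nearly as close to *Arc* (r = 0.79, permutation p = 0.0001, adjusted p = 0.00045; rho = 0.75, permutation p = 0.00022, adjusted p = 0.00165). *Fosb* was nearest to *Fos* (r = 0.63, permutation p = 0.00356, adjusted p = 0.00843; rho = 0.63, permutation p = 0.00339, adjusted p = 0.0109; r = 0.54 without the 2 farthest mice) and had an r of 0.15 with *Junb* (permutation p = 0.588, adjusted p = 0.616). The 9 pairs with *Egr2* had a median r of 0.20, beside 0.65 for the 36 pairs without it. *Egr2* is also the member with the fewest fragments, and their part in its low r was not tested.

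**Figure D4:**
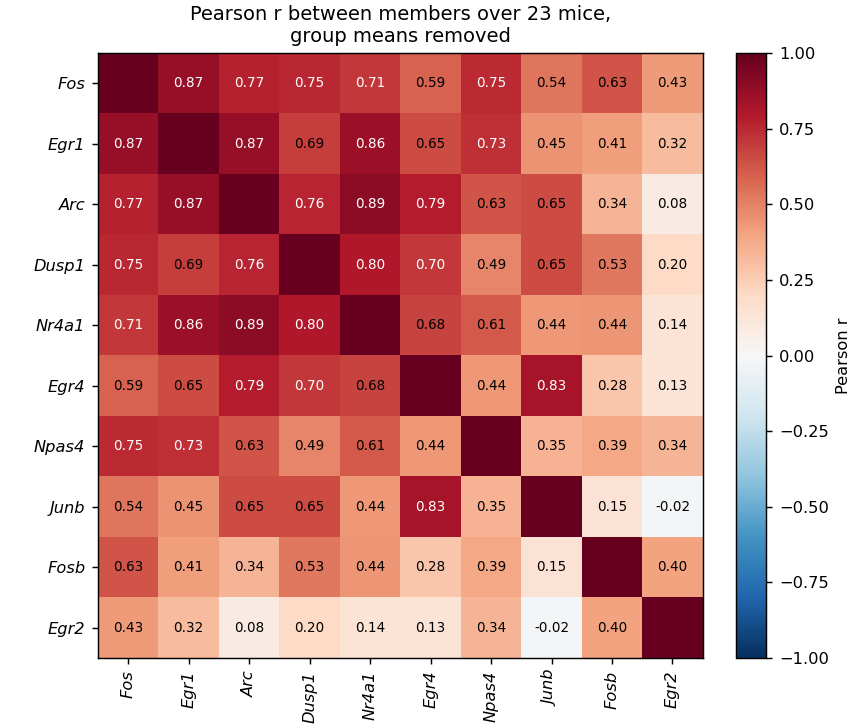
Pearson r between the 10 members over 23 mice after subtracting group means, ordered by mean r with the other 9; red is positive. *Arc*, *Egr1*, *Fos*, *Nr4a1* and *Dusp1* form the darkest block (r of 0.69 to 0.89) and *Egr2* the palest row.

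The mice with the most choroid plexus RNA included those lowest in the members. The 4 highest sums of the 7 choroid plexus markers were 7823 FPKM (EtOH-UA mouse B), 5763 (EtOH mouse G), 3429 (EtOH-UA mouse G) and 2977 (Ctrl mouse C), and these mice ranked 1, 3, 6 and 2 from the lowest in mean member deviation. The sums that followed were 2576 FPKM (EtOH mouse C), 2389 (EtOH mouse D), 2132 (Ctrl mouse G) and 1875 (EtOH-UA mouse A). Those mice ranked 10, 16, 5 and 21. Over all 23 mice, with group means removed, the marker mean and the mean member deviation had r = -0.47. It was -0.33 without the 2 mice farthest from the median marker value. The marker sum ran from 7.88 to 2977 FPKM among Ctrl mice, with a range of 70.6 to 5763 for EtOH and of 16.02 to 7823 for EtOH-UA. With the marker mean removed as well, an alternative chosen after seeing the data, the median r between members was 0.52. For inhibitory neurons the direction was opposite, and 6 of the 7 had a mean r above 0 with the members, with *Slc32a1*, the vesicular GABA transporter, at 0.54 and *Gad1* at 0.51. Their sum was 304.1 to 511.2 FPKM among Ctrl mice, 331.5 to 443.0 for EtOH and 330.0 to 522.3 for EtOH-UA. A mean r above 0 was not particular to inhibitory neurons, since all 6 oligodendrocyte markers had one (0.23 to 0.30). Nor was a mean r under 0 particular to the choroid plexus markers (-0.45 to -0.33). All 6 astrocyte markers had one (-0.23 to -0.065), and only 1 of 7 endothelial markers was above 0 (-0.33 to 0.094). Of the 10 markers of hippocampal excitatory neurons, 4 had a mean r above 0, and their median was -0.11. The part of any of these cell types in the members' levels was not otherwise tested.

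To place the set among related genes, the mean r with the members was taken for every gene averaging 1 FPKM or more. In the gene lists it was taken for every tested gene, including some under 1 FPKM such as *Atf3* (0.35 FPKM) and *Maff* (0.59 FPKM). *Fos* (0.67), *Egr1* (0.65) and *Arc* (0.64) had a mean r with the other 9 members above that of all 12895 nonmembers, and 2 nonmembers exceeded *Dusp1* and *Nr4a1* (0.62 each). Nonmembers among those most like the set were *Fam205a3* (0.64), *Pi4ka* (0.63), *Rap1gap* (0.62), *Fam234b* (0.61), *Ttc9* (0.60), *Bcat1* (0.60), *Kcnab3* (0.59), *Tmem151b* (0.59) and *Plpbp* (0.59). Of these, *Pi4ka* makes the membrane lipid phosphatidylinositol 4-phosphate and *Rap1gap* switches off the GTPase RAP1. They were chosen for this value among many genes, so it carries no test.

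Other immediate early genes did not all follow the 10 members. In a list of 32, the median of the mean r was 0.13 and 20 were above 0, beside a median of -0.003 over nonmembers averaging 1 FPKM or more. The ends of the list, named after their values were seen, were *Per1*, a clock gene with CRE sites (0.57), the MAP kinase phosphatase *Dusp5* (0.52) and the AP-1 subunit *Fosl2* (0.51) on the high side, and *Nr4a3* (-0.37), a relative of *Nr4a1*, and *Jun* (-0.30), the main partner of *Fos*, on the low side. *Egr3*, induced by the same stimuli as *Egr1*, was at -0.055, although its mean level of 23.4 FPKM was close to that of *Egr1*. These genes share the library with the members, and the values are descriptions over the same 23 mice.

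**Figure D5:**
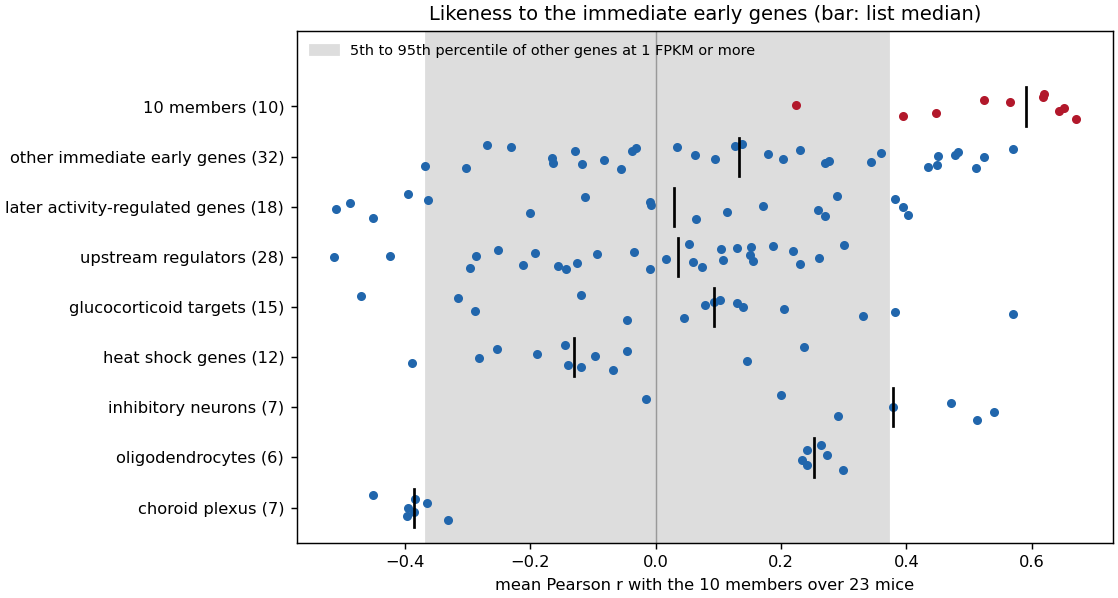
Mean Pearson r of single genes with the 10 members over 23 mice, by gene list, with the number of genes in parentheses and the list median as a bar; the grey band spans the 5th to 95th percentile of nonmembers (-0.37 to 0.37). The members lie mostly right of the band, the 32 other immediate early genes spread across it, and the choroid plexus markers lie at its left edge.

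Between the groups, 0 of the 32 other immediate early genes were called in any comparison. At an unadjusted p under 0.05, 2 had lower values in EtOH than in Ctrl mice, the apoptosis-related *Ier3* (log2 difference -0.27, limma adjusted p = 0.999) and the shear-stress factor *Klf2* (-0.29, adjusted p = 0.999). For EtOH-UA against EtOH there were 4 of 32 (beside 3.27% of all genes), led by *Ier3* (0.30, limma adjusted p = 0.900), *Ier5* (0.28, adjusted p = 0.900) and *Cebpb* (0.33, adjusted p = 0.900). For EtOH-UA against Ctrl there were 0 of 32, with *Zfp36*, which destabilizes short-lived mRNAs, nearest (0.22, limma adjusted p = 0.999). The list medians were -0.018, 0.063 and 0.040 in the 3 comparisons.

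The later genes of the response and its upstream regulators were taken in the same way. Of 18 later activity-regulated genes, 0 were called and 0, 0 and 1 had an unadjusted p under 0.05 in EtOH against Ctrl, EtOH-UA against EtOH and EtOH-UA against Ctrl, the last being *Crem* (log2 difference 0.16, limma adjusted p = 0.999), which encodes CREB-family repressors. *Bdnf*, the neurotrophin, differed by 0.22 between EtOH-UA and EtOH mice (limma adjusted p = 0.900), and its mean r with the members was -0.45. Of 28 upstream regulators (kinases, transcription factors and coactivators), 0 were called and *Crem*, which stands on both lists, was the 1 with an unadjusted p under 0.05. Their median mean r with the members was 0.036, and that of the later genes 0.029. The later genes ran from -0.51 to 0.40, and 9 of the 18 were above 0.

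Lists of other stress responses were taken for comparison because several members also answer to stress hormones and handling. Of 15 glucocorticoid targets, 0 were called, and 0, 1 (*Mt1*) and 2 (*Lcn2* and *Cdkn1a*) had an unadjusted p under 0.05 in EtOH against Ctrl, EtOH-UA against EtOH and EtOH-UA against Ctrl. *Lcn2*, a secreted acute-phase protein, had the smallest p in EtOH-UA against Ctrl (log2 difference 1.55, limma adjusted p = 0.999). The mean r of these targets with the members had a median of 0.094. The highest was that of *Per1* (0.57), which also stands on the list of other immediate early genes. Of 12 heat shock genes, 0 were called, and *Bag3*, a chaperone partner, was the 1 with an unadjusted p under 0.05 (EtOH-UA against Ctrl, log2 difference 0.16, limma adjusted p = 0.999). Their median mean r was -0.13.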

How the data were processed

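Hippocampal RNA of 23 mice (9 Ctrl, 7 EtOH, 7 EtOH-UA) was analysed from FPKM values that the authors deposited to 2 decimals. Per the methods, reads were filtered with SOAPnuke, aligned to mm10 with Bowtie2 and quantified with RSEM. The submitters' processing notes name Bowtie2 2.2.5, RSEM 1.2.8 and also HISAT2 2.1.0. According to the methods the RNA was poly(A)+, whereas the labels call it total RNA. FPKM are not counts, and the count test of the methods was not rerun.

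All 23 columns were assigned to groups by name and used. A limma 3.58.1 model of 3 groups (R 4.3.3, intensity trend, no covariate) was fitted to log2(FPKM + 0.1) of the 15985 genes averaging at least 0.1 FPKM, after a test on simulated data, with Benjamini-Hochberg adjustment over all of them. Single members were compared by exact permutation, two-sided, and pairs of members by 100000 permutations within groups. Coordinates are those of RefSeq on GRCm38, the assembly also called mm10. The nonmembers named were up to 3 of each list and comparison with the smallest p, and the 10 of highest mean r with the members, of which 1 is not reported here. The members and gene lists were chosen with earlier results of these data known. Alternatives were pseudocounts of 1 and 0.01, no filter or a mean of 1 FPKM, fits of 2 groups, upper-quartile and quantile scaling, robust variances, array weights and leaving out each mouse. A choroid plexus covariate and a fit without the 2 EtOH-UA libraries of highest summed FPKM were added after seeing the data.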

Additional observations from a re-analysis of the deposited data

Results flagged for a closer look

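In Ctrl mice, the lowest *Junb* value, that of Ctrl mouse C (11.1 FPKM, next to a median of 15.2), stood apart from the other 8, with a gap to its nearest neighbour of 0.617 of the whole range on the log2 scale, above Dixon's 95% critical value of 0.493 for 9 samples. The lowest *Egr4* value, also of Ctrl mouse C (3.14 FPKM, next to a median of 4.59), had a gap of 0.596 of the range. Such gaps were sought in 33 sets of values, the 10 members and their mean in 3 groups, and chance gives about 1 in 20, so the 2 found are near the number chance gives. The same mouse was lowest of its group in 8 members, and its choroid plexus markers summed to 2977 FPKM, the highest of the Ctrl group; the part of either in the *Junb* and *Egr4* values was not tested.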

How the results depend on the processing

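The number of members called was 0 in every setting tried. Of the 777 member differences recomputed, 690 kept their sign, 87 changed it and 0 passed the threshold (smallest limma adjusted p 0.564). *Fosb* in EtOH against Ctrl stayed between -0.28 and -0.14. The count of all genes called for EtOH against Ctrl was 1 (*Cd24a*) in place of 0 with array quality weights. With single mice left out it ran from 0 to 1 in each of the 3 comparisons, being 1 without Ctrl mouse I in EtOH against Ctrl (*LOC115488002*) and without EtOH-UA mouse F or G in both EtOH-UA comparisons (*LOC101055676*). For EtOH against Ctrl, the log2 difference changed sign with some single mouse left out for *Arc* (-0.10 to 0.044), *Egr2* (-0.11 to 0.097), *Nr4a1* (-0.092 to 0.033), *Egr1* (-0.034 to 0.074), *Fos* (-0.20 to 0.036) and *Egr4* (-0.12 to 0.0029). It did so with a pseudocount of 1 for *Egr2* (-0.0020), with upper-quartile scaling for *Arc* (0.0056), with quantile normalization for *Egr2* (-0.077), with array quality weights for *Egr1* (-0.0025), with the choroid plexus covariate for *Fos* (0.074), *Junb* (0.040), *Arc* (0.14), *Egr4* (0.059) and *Nr4a1* (0.076). For EtOH-UA against EtOH, the log2 difference changed sign with some single mouse left out for *Egr2* (-0.097 to 0.085), *Nr4a1* (-0.0005 to 0.15), *Egr4* (-0.083 to 0.060), *Fos* (-0.024 to 0.27), *Egr1* (-0.045 to 0.15), *Fosb* (-0.026 to 0.10) and *Arc* (-0.039 to 0.19). It also did so with upper-quartile scaling for *Egr4* (-0.016), with quantile normalization for *Egr2* (0.045), with array quality weights for *Egr2* (0.055) and *Egr4* (-0.016), with the choroid plexus covariate for *Egr4* (-0.031), without the 2 EtOH-UA libraries of highest summed FPKM for *Egr2* (0.11) and *Egr4* (-0.033). For EtOH-UA against Ctrl, the log2 difference changed sign with some single mouse left out for *Fos* (-0.083 to 0.22), *Arc* (-0.047 to 0.18), *Egr1* (-0.023 to 0.17), *Npas4* (-0.067 to 0.16), *Egr2* (-0.10 to 0.070), *Egr4* (-0.14 to 0.0012) and *Nr4a1* (-0.042 to 0.13). It also did so with array quality weights for *Egr2* (0.12), with the choroid plexus covariate for *Egr2* (0.035), *Egr4* (0.028) and *Dusp1* (0.028), without the 2 EtOH-UA libraries of highest summed FPKM for *Junb* (-0.022) and *Egr2* (0.12). The cause of these changes was not tested, and each difference that changed sign was then smaller than its standard error. The median r between members lay between 0.52 and 0.64 in all 27 alternatives, lowest with the choroid plexus covariate removed. No paired analysis was possible because the columns carry mouse numbers, not replicate numbers. The methods state random assignment to groups and name no pairs of mice, so shared replicate numbers alone would not define pairs. *Egr2*, *Fosb* and *Fos* rest on few fragments, which limits what can be seen in them.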
